A study of Mus musculus with 14 samples.

Results

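The 38 genes described here encode NRF2, its inhibitor KEAP1 and 36 enzymes, transporters and binding proteins whose genes NRF2 is known to switch on. The members were the rows of the deposited count table whose gene symbol is on a list of these names. All 38 symbols were found, each in 1 row, among 56953 genes. Of these, 37 passed the filter on low counts and were tested. Gstm3, a glutathione transferase, did not pass and stayed at or under 0.648 CPM in every library, with CPM meaning the counts of a gene per 1000000 counts of its library after scaling.

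NRF2, the product of Nfe2l2, is a transcription factor that pairs with small MAF proteins and binds the antioxidant response element, a short motif in the control regions of its targets. In resting cells KEAP1 holds NRF2 on a ubiquitin ligase built on cullin 3, which marks NRF2 for destruction, and electrophiles or oxidants that modify KEAP1 let NRF2 accumulate. Cullin 3 works as a ligase when NEDD8, a small ubiquitin-like protein, is attached to it. In skin this pathway is known for the defence of keratinocytes against ultraviolet light, oxidants and chemicals.

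The study measured RNA in 14 libraries of mouse skin from 6 groups. Mice with both Nedd8 copies floxed and the K14-CreERT transgene, labelled NEDD8fl/fl, K14-CreERT pos and called knockout here, gave 2 libraries with imiquimod and 3 with DMSO. Floxed mice without the transgene (K14-CreERT neg), called Cre-negative, gave 2 with imiquimod and 3 with DMSO, and wild type C57BL/6J mice gave 2 of each. Imiquimod, an agonist of Toll-like receptor 7, was given daily as Aldara cream with 5% of the drug to day 7 and causes a psoriasis-like inflammation. Knockout mice were induced on 5 days beforehand, with an agent the labels do not name, and no induction is given for the other genotypes. From these labels, induction and knockout genotype therefore cannot be told apart. The Krt14 promoter drives the recombinase in basal keratinocytes, so dermal and immune cells of knockout skin keep Nedd8. No group had the cream without imiquimod, cream went on backs or ears with no record of which, and no age or animal is given, so p-values measure spread between libraries. The series design text describes a NEDD8 inhibitor given to wild-type mice and does not match these labels.

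The deposited libraries held 5552954 to 34362477 counts. The 18S ribosomal RNA gene took 3.84% to 19.1% of them, most in Cre-negative imiquimod replicate 2 and knockout DMSO replicate 1 (17.5%), which was also the shallowest library. Nedd8 had 375, 158 and 147 CPM in knockout DMSO skin and 359.5, 289.7 and 291 CPM in DMSO-treated Cre-negative skin. Under imiquimod it had 308 and 151 CPM in knockout skin and 314 and 461 CPM in Cre-negative skin, against 684 and 376 CPM in wild-type imiquimod and 203 and 269.6 CPM in wild-type DMSO skin. The knockout was not called lower (log2 fold change -0.47 ± 0.40, adjusted p = 0.40 with DMSO and -0.76 ± 0.50, adjusted p = 0.33 with imiquimod), and knockout DMSO replicate 1 lay above all Cre-negative DMSO libraries. These tags come from 3′ ends, which need not be in the floxed part, so this does not check the deletion. All 7 keratinocyte markers were found in every group, with summed levels of 17000 to 23020 CPM in knockout DMSO and 9352 to 16860 CPM in Cre-negative DMSO libraries. The sum hides opposite changes. Of these markers, 2 were called higher and 2 lower in knockout than in Cre-negative DMSO skin, with log2 fold changes from -7.53 to 2.65. By their reads of Xist and of 4 genes on the Y chromosome, the knockout DMSO and the wild-type libraries were female and the knockout and Cre-negative imiquimod libraries male, while Cre-negative DMSO skin had 2 male libraries and 1 female one. Knockout against wild-type DMSO skin and knockout against Cre-negative imiquimod skin were therefore comparisons within 1 sex.

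Promoter sequences of 32 members were at hand, as windows from 250 bases before to 50 bases after a RefSeq start site (GRCm38.p6). They were searched on both strands for the core of the antioxidant response element, TGACNNNGC, and for TGANTCA, the site of AP-1 factors, which shares letters with it and can overlap it. The core was found in 11 of the 32 members with a window and in 27.5% of their 40 windows, against 12.4% of all 32851 windows of the table. TGANTCA was found in 12.5% of member windows and 7.81% of all windows. Of the 11 members with the core, 8 were called higher in knockout than in Cre-negative DMSO skin, and of the 21 with a window and no core, 15 were. These shares were alike, and of all 37 members tested 27 were called higher, against 14% of all genes. A match describes letters and not a bound site, and known elements of several members lie farther upstream than these windows. The 250 bases before the start site are shown for NRF2's own gene and for 3 of its targets, from glutathione synthesis, peroxide removal and NADPH supply, with the core in capitals, on whichever strand it lies:
Nfe2l2, chr2:75704664-75704913, minus strand: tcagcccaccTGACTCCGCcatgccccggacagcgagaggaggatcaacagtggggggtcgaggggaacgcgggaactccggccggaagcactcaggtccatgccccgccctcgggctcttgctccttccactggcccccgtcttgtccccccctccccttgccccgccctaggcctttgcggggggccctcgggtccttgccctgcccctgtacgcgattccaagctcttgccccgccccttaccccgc
Gclm, chr3:122245307-122245556, plus strand: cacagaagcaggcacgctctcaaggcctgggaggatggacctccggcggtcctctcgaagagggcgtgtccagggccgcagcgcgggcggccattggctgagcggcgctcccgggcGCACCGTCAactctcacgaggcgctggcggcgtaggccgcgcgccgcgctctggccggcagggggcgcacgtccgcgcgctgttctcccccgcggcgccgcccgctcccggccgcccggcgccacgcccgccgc
Prdx1, chr4:116685349-116685598, plus strand: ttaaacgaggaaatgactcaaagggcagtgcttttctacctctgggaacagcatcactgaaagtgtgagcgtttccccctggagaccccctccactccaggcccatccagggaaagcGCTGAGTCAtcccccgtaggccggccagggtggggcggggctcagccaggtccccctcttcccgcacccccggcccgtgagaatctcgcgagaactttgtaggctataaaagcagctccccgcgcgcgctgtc
G6pdx, chrX:74428881-74429130, minus strand: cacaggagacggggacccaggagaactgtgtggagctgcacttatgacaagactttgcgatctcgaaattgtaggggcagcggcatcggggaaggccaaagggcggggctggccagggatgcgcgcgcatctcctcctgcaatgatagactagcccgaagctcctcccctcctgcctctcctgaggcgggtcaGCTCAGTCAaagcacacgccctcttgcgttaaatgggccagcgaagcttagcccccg
The core of Nfe2l2 read TGACTCCGC, with its first base 240 bases before the start. That of Gclm, read on the other strand, was TGACGGTGC. The core of Prdx1 also lay on the other strand and read TGACTCAGC, which holds a TGANTCA site within it. That of G6pdx was TGACTGAGC, again on the other strand. Me1 held TGACTCAGC as well, and the remaining members with a match were Gsta3, Srxn1, Pgd, Ugdh, Mgst1 and Txnrd1.

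The first comparison, of knockout with Cre-negative DMSO skin, addresses how the NRF2 genes stand in skin of the knockout genotype without imiquimod. Of 37 members tested, 27 rose and 0 fell, where 29.6% of all 16027 genes tested were called, 14% higher and 15.7% lower. A gene is called at an adjusted p under 0.05 (edgeR's quasi-likelihood test, Benjamini-Hochberg adjustment over all genes), and each value written with ± is a log2 fold change and its SE unless CPM is named. The median log2 fold change of the members was 2.47, and that of all genes was -0.06. Against wild-type DMSO skin, a comparison that shares the knockout libraries, 26 members rose and 0 fell (11.3% of all genes rose and 14.4% fell), with a median of 2.23. DESeq2 called 27 members higher and 1, Me1, lower against Cre-negative skin, and with replicate numbers as a block 27 were higher and 1, Gstm2, lower. With libraries scaled by size alone, in place of edgeR's TMM scaling, which moved the median of all genes to -0.41, 24 members rose and Gstm2 fell (-1.17), and the split of all genes called was 1183 higher and 3378 lower, against 2243 and 2509 in the TMM scaling. Against wild-type skin that scaling gave 21 members that rose and 2, Gstm2 and Me1, that fell, with 842 genes higher and 3365 lower and a median of all genes of -0.51. Cre-negative and wild-type DMSO skin themselves differed in 0 members and 0.00% of all genes by edgeR's test, with 2 members and 1120 genes at an unadjusted p under 0.05, and by DESeq2 in 1 member, Cbr3 (1.53, adjusted p = 0.017), also called without the filter on low counts and with these groups fitted alone. Summed neutrophil markers were 17040 to 63200 CPM in knockout DMSO and 65.5 to 690.2 CPM in Cre-negative DMSO libraries, while sebocyte markers summed to 26.1 to 39.5 and 390.5 to 673 CPM and skeletal muscle markers to 1161 to 1977 and 5514 to 15400 CPM. The neutrophil list includes S100a8 and S100a9, which inflamed keratinocytes also make, so its sums here and below do not stand for neutrophils alone. Of its 7 markers tested, 6 rose. All 9 neutrophil markers except Mpo and Elane had reads in knockout DMSO skin, and all 6 markers of each other list had reads in both groups. Wild-type DMSO libraries had sums of 7359 to 8551 CPM for keratinocyte and 661 to 1162 CPM for adipocyte markers. Knockout DMSO libraries had 17000 to 23020 and 70.3 to 122 CPM. Against wild-type skin all 5 adipocyte markers fell, and of 7 keratinocyte markers 2 rose and 1 fell. The part of these cells in the member values was not tested, and in bulk skin a change in cell number and a change in RNA per cell cannot be told apart.

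**Figure D1:**
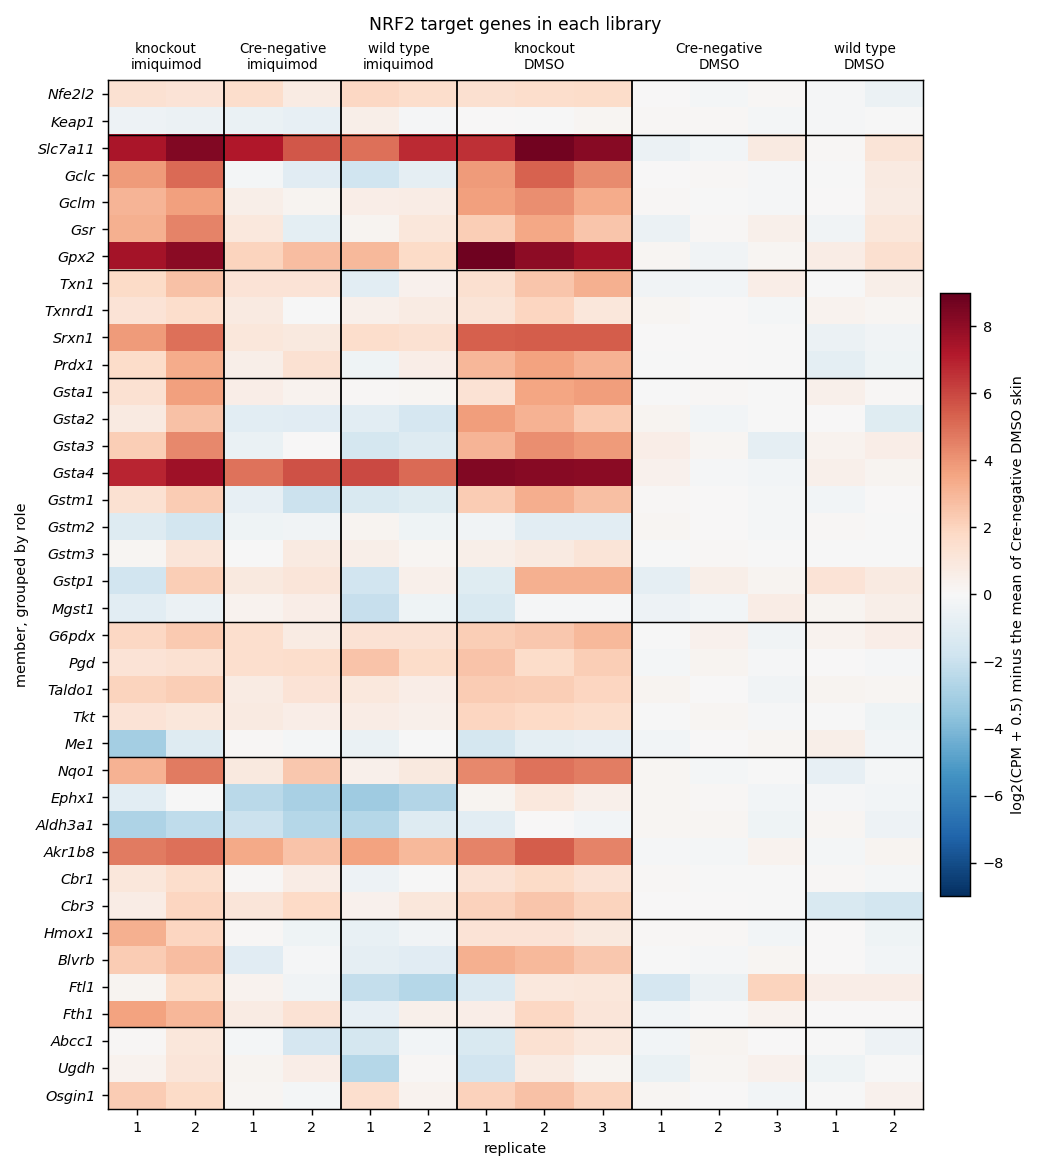
Level of each of the 38 members (rows, grouped by role) in each library (columns, by group and replicate), as log2(CPM + 0.5) minus the mean of the 3 Cre-negative DMSO libraries. Red is higher and blue lower. Slc7a11, Gpx2 and Gsta4 are darkest in the knockout libraries, and most rows are red in knockout skin with either treatment.

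Of the regulators, Nfe2l2 (ENSMUSG00000015839.7, chromosome 2, 75505857 to 75534985, minus strand) rose and Keap1 (chromosome 9, 21141026 to 21150657, minus strand) did not pass. Positions of genes are on GRCm39. Nfe2l2 had 165, 184 and 194 CPM in knockout DMSO libraries, 63.9, 55.5 and 66.1 CPM in Cre-negative and 56.4 and 43.6 CPM in wild-type DMSO libraries. All knockout values lay above all others, with a log2 fold change of 1.55 ± 0.27 (adjusted p = 0.0010) against Cre-negative and 1.86 ± 0.32 (adjusted p = 0.0011) against wild-type skin. Keap1 had 102, 95.9 and 115 CPM in knockout DMSO libraries, 106, 108 and 88.0 CPM in Cre-negative and 91.8 and 99.2 CPM in wild-type DMSO libraries. These ranges overlapped, with a log2 fold change of 0.05 ± 0.23 (adjusted p = 0.89) against Cre-negative skin.

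All 5 members of glutathione synthesis and use rose. Gpx2, a glutathione peroxidase that reduces peroxides and is best known from gut epithelium, had 882, 534 and 369.7 CPM in knockout DMSO libraries, 1.79, 1.09 and 1.75 CPM in Cre-negative and 2.71 and 5.00 CPM in wild-type DMSO libraries. Its log2 fold change was 8.59 ± 0.58 (adjusted p = 1.4e-06), or 385-fold, with no overlap. Slc7a11 (chromosome 3, 49846975 to 50398063, minus strand), the cystine importer that feeds glutathione synthesis, had 233, 984 and 727 CPM in knockout DMSO libraries, 1.17, 1.59 and 3.72 CPM in Cre-negative and 2.11 and 4.95 CPM in wild-type DMSO libraries (8.24 ± 0.86, adjusted p = 2.4e-05). The lowest knockout library was still far above every control, although replicate 1 held less than the other two. Gclc and Gclm are the catalytic and modifier subunits of glutamate-cysteine ligase, which makes the first bond of glutathione. Gclm had 316, 435 and 242 CPM in knockout DMSO libraries, 25.4, 23.6 and 22.0 CPM in Cre-negative and 24.2 and 39.0 CPM in wild-type DMSO libraries (3.81 ± 0.32, adjusted p = 5.4e-06). Gclc stood at 345 to 973 CPM in knockout and 21.9 to 25.4 CPM in Cre-negative DMSO libraries (4.63 ± 0.52). Gsr, glutathione reductase, which turns oxidised glutathione back, stood at 17.6 to 43.9 CPM in knockout and 2.24 to 4.81 CPM in Cre-negative DMSO libraries (2.95 ± 0.60).

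All 4 members of the thioredoxin system rose. Srxn1 (chromosome 2, 151947444 to 151953296, plus strand), sulfiredoxin, which repairs overoxidised peroxiredoxins, had 2057, 2077 and 2129.7 CPM in knockout DMSO libraries, 49.8, 48.5 and 46.1 CPM in Cre-negative and 34.0 and 39.3 CPM in wild-type DMSO libraries. The values within each group were close together and the log2 fold change was 5.44 ± 0.35 (adjusted p = 1.3e-06), or 43.4-fold. Prdx1, the peroxiredoxin whose promoter core overlaps an AP-1 site above, had 5616, 8796 and 6236 CPM in knockout DMSO libraries, 689, 736 and 681 CPM in Cre-negative and 384 and 549 CPM in wild-type DMSO libraries (3.29 ± 0.48, adjusted p = 2.9e-04). Txn1, thioredoxin itself, changed by 2.47 ± 0.50 on the log2 scale and Txnrd1, the reductase that recharges it, by 1.43 ± 0.31.

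Of the 9 glutathione transferases, which join glutathione to electrophiles, 8 were tested and 5 rose. Gsta4, which acts on the lipid peroxidation product hydroxynonenal, had 1020.1, 928 and 850.2 CPM in knockout DMSO libraries, 3.52, 2.41 and 2.11 CPM in Cre-negative and 3.71 and 3.17 CPM in wild-type DMSO libraries. That was 346-fold by the fit (8.43 ± 0.46, adjusted p = 4.8e-07), with a narrow spread in knockout skin. Gsta1, Gsta2 and Gsta4 lie in 1 stretch of chromosome 9, between 78099229 and 78254440. Gsta2 rose (43.0 to 115 CPM in knockout and 6.95 to 9.56 CPM in Cre-negative DMSO libraries, log2 fold change 3.23 ± 0.50), as did Gsta3 (4.11 ± 0.64). Gsta1 had 289 counts in knockout DMSO and 1 in Cre-negative DMSO libraries, a ratio of 290 with an exact 95% interval of 51.6 to 11495 for counting error only, and reads of Gsta1 and Gsta2 can be split between these close paralogs. Gstm1, Gstm2 and Gstm3 lie in 1 stretch of chromosome 3, between 107871012 and 107925289, and differed. Gstm1 had 68.0, 129.8 and 87.9 CPM in knockout DMSO libraries, 14.7, 13.8 and 11.6 CPM in Cre-negative and 11.0 and 13.6 CPM in wild-type DMSO libraries (2.83 ± 0.38, adjusted p = 1.8e-04). Gstm2 stood at 9.50 to 14.8 CPM in knockout and 16.6 to 20.9 CPM in Cre-negative DMSO libraries (-0.77 ± 0.29, adjusted p = 0.059). These ranges did not overlap, and Gstm2 was called lower with replicate numbers as a block (-0.78, adjusted p = 0.041, or 0.048 with the compared groups alone), without knockout DMSO replicate 1 (-0.98, adjusted p = 0.029) and without both libraries high in 18S rRNA (-0.93, adjusted p = 0.031). Gstp1 split the knockout libraries, with 0.509, 19.2 and 19.6 CPM, against 0.727, 2.63 and 2.11 CPM in Cre-negative skin (2.88 ± 1.16, adjusted p = 0.076), and its low value was in the shallow replicate 1. Low values of Gstp1 were not confined to that library, with 0.152 to 9.65 CPM in knockout imiquimod and 0.141 to 2.42 CPM in wild-type imiquimod libraries. Mgst1, a membrane-bound transferase, was not called (-0.49 ± 0.44). Gstp1 was called higher without knockout DMSO replicate 1 (3.42, adjusted p = 0.026), without both libraries high in 18S rRNA (3.47, adjusted p = 0.038), with the compared groups alone (2.90, adjusted p = 0.035, or 2.51, adjusted p = 0.0043 with the block) and without the filter on low counts (2.90, adjusted p = 1.3e-08). Without that filter Gstm3 was called too (4.12, adjusted p = 0.014), on 28 counts in all knockout and 1 in all Cre-negative DMSO libraries.

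Of the 5 enzymes that supply NADPH, the electron source of both systems, 4 rose. G6pdx, which opens the pentose phosphate pathway, had 34.4, 38.6 and 55.5 CPM in knockout DMSO libraries, 6.82, 8.97 and 5.39 CPM in Cre-negative and 8.63 and 10.7 CPM in wild-type DMSO libraries (2.60 ± 0.32, adjusted p = 9.4e-05). Pgd, the next NADPH-making step, had 807, 416 and 620 CPM in knockout DMSO libraries, 118, 157 and 126 CPM in Cre-negative and 138 and 124 CPM in wild-type DMSO libraries (2.20 ± 0.32). Taldo1 and Tkt carry the non-oxidative branch, which rebuilds hexoses. Taldo1 had 720.3, 692 and 573 CPM in knockout DMSO libraries, 177, 155 and 121 CPM in Cre-negative and 176 and 166 CPM in wild-type DMSO libraries (2.13 ± 0.27, adjusted p = 1.1e-04). Tkt had 1346, 1217 and 1053 CPM in knockout DMSO libraries, 337, 390 and 321 CPM in Cre-negative and 334 and 260.2 CPM in wild-type DMSO libraries (1.79 ± 0.25). In each of these 4 genes the knockout libraries lay above every control library. Me1, malic enzyme, which also serves fat synthesis, did not pass (48.9 to 85.7 CPM in knockout and 122 to 164 CPM in Cre-negative DMSO libraries, -1.03 ± 0.42, adjusted p = 0.077), though DESeq2 called it lower (adjusted p = 0.050), as did edgeR's test without the filter on low counts (adjusted p = 0.027) and on the compared groups alone (adjusted p = 0.019, or 0.0093 with the block).

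Among the enzymes for quinones, carbonyls, aldehydes and epoxides, 4 of 6 rose. Nqo1, the quinone reductase often read as the marker of NRF2 activity, had 84.6, 121 and 99.1 CPM in knockout DMSO libraries, 4.31, 3.17 and 3.57 CPM in Cre-negative and 2.01 and 3.17 CPM in wild-type DMSO libraries (4.78 ± 0.49, adjusted p = 2.2e-05). Akr1b8, an aldo-keto reductase, had 86.3, 168 and 87.2 CPM in knockout DMSO libraries, 3.08, 2.95 and 4.37 CPM in Cre-negative and 2.91 and 4.06 CPM in wild-type DMSO libraries (5.04 ± 0.41, adjusted p = 4.1e-06). Neither gene's knockout values touched the controls. Cbr1 and Cbr3, carbonyl reductase genes that lie close together on chromosome 16, both rose (1.5 ± 0.28 and 2.21 ± 0.35). Cbr3 had 287, 375 and 269 CPM in knockout DMSO libraries, 67.4, 67.6 and 66.5 CPM in Cre-negative and 25.3 and 21.1 CPM in wild-type DMSO libraries, so the control genotypes did not overlap either. Ephx1, the microsomal epoxide hydrolase, had 14.5, 23.3 and 17.0 CPM in knockout DMSO libraries, 13.9, 12.8 and 9.98 CPM in Cre-negative and 11.4 and 10.2 CPM in wild-type DMSO libraries, and was not called (0.58 ± 0.34, adjusted p = 0.21). Aldh3a1, an aldehyde dehydrogenase, was not called either (-0.37 ± 0.42).

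In the heme and iron group 3 of 4 rose. Blvrb, which reduces biliverdin, had 314, 254 and 179.7 CPM in knockout DMSO libraries, 31.6, 30.0 and 38.1 CPM in Cre-negative and 33.6 and 28.1 CPM in wild-type DMSO libraries (2.91 ± 0.32, adjusted p = 3.8e-05). Hmox1, heme oxygenase, which opens heme to biliverdin, had 159.7, 159.6 and 127 CPM in knockout DMSO libraries, 73.9, 75.9 and 58.3 CPM in Cre-negative and 71.5 and 52.0 CPM in wild-type DMSO libraries (1.10 ± 0.33, adjusted p = 0.022). The groups did not overlap, yet the shift was smaller than in Blvrb. Fth1, the heavy chain of the iron store ferritin, changed by 1.25 ± 0.39 on the log2 scale (adjusted p = 0.029). Ftl1, the light chain, stood at only 0.764 to 5.55 CPM in knockout and 0.559 to 11.6 CPM in Cre-negative DMSO libraries (-0.14 ± 0.88), and reads of both ferritin genes, Gstp1, Prdx1 and Txn1 can be lost to or shared with near-identical copies.

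Of the last 3 members 1 rose. Osgin1, a growth inhibitor induced by oxidative stress, had 8.92, 13.2 and 8.26 CPM in knockout DMSO libraries, 2.01, 1.81 and 1.38 CPM in Cre-negative and 1.71 and 2.38 CPM in wild-type DMSO libraries (2.54 ± 0.41, adjusted p = 6.1e-04). Abcc1, an exporter of glutathione conjugates, had 10.7, 73.7 and 56.0 CPM in knockout DMSO libraries, 23.0, 33.0 and 29.1 CPM in Cre-negative and 27.6 and 20.8 CPM in wild-type DMSO libraries. Its replicate 1 lay under every control and its other knockout libraries above them (0.73 ± 0.57, adjusted p = 0.36). Ugdh, which makes the sugar donor of glucuronidation, was not called (0.07 ± 0.66).

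The calls of Hmox1 and Fth1 in this comparison rested on single libraries. For Hmox1 the call ended without knockout DMSO replicate 2 (1.05), Cre-negative DMSO replicate 1 (1.15), Cre-negative DMSO replicate 2 (1.17) or Cre-negative DMSO replicate 3 (0.99), and for Fth1 without knockout DMSO replicate 2 (0.85), Cre-negative DMSO replicate 1 (1.12) or Cre-negative DMSO replicate 2 (1.23). A sex term, which rests on the Cre-negative DMSO libraries alone, left 20 members called and ended the calls of Nfe2l2 (1.45, adjusted p = 0.055), Gsr (2.53, adjusted p = 0.12), Txn1 (1.92, adjusted p = 0.12), Txnrd1 (1.59, adjusted p = 0.063), Cbr1 (1.56, adjusted p = 0.053), Hmox1 (1.35, adjusted p = 0.12) and Fth1 (0.96, adjusted p = 0.34). Against wild-type DMSO skin, where all libraries are female, Nfe2l2, Gsr, Txn1, Txnrd1, Cbr1 and Hmox1 rose and Fth1 did not pass (1.24 ± 0.45, adjusted p = 0.059). Fth1 was called there with DESeq2 (adjusted p = 0.020), without the filter on low counts (adjusted p = 0.031), without knockout DMSO replicate 1 (1.48, adjusted p = 0.030) and without both libraries high in 18S rRNA (1.54, adjusted p = 0.027). Against wild-type skin the call ended for Gsr without knockout DMSO replicate 2 (1.91) or wild-type DMSO replicate 1 (1.90), for Txn1 without wild-type DMSO replicate 1 (2.03) or wild-type DMSO replicate 2 (2.56), for Txnrd1 without knockout DMSO replicate 2 (0.83), wild-type DMSO replicate 1 (1.25) or wild-type DMSO replicate 2 (1.13), for Gsta1 without wild-type DMSO replicate 2 (4.43), for Cbr1 without wild-type DMSO replicate 2 (1.41) and for Hmox1 without knockout DMSO replicate 2 (1.22), wild-type DMSO replicate 1 (1.55) or wild-type DMSO replicate 2 (1.05). Scaled by library size alone, Txnrd1 (1.10, adjusted p = 0.052), Hmox1 (0.73, adjusted p = 0.15) and Fth1 (0.94, adjusted p = 0.15) were not called against Cre-negative skin, and Gsr (1.97, adjusted p = 0.094), Txn1 (1.84, adjusted p = 0.068), Txnrd1 (0.75, adjusted p = 0.23), Cbr1 (1.11, adjusted p = 0.057) and Hmox1 (0.80, adjusted p = 0.17) were not called against wild-type skin. Txnrd1 also lost that call with the compared groups alone (adjusted p = 0.068). Me1 was called lower than in wild-type skin with DESeq2 (-1.23, adjusted p = 0.036) and without the filter (-1.23, adjusted p = 0.015), and Gstm2 without knockout DMSO replicate 1 (-1.02, adjusted p = 0.039) or both libraries high in 18S rRNA (-0.96, adjusted p = 0.041). Without the filter Gstm3 (5.86, adjusted p = 0.021) and Gstp1 (1.80, adjusted p = 0.0047) were called higher.

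Knockout against Cre-negative skin under imiquimod, all male libraries and none shared with the DMSO comparison, asked the same under inflammation. Of 37 members, 19 rose and 1 fell, where 11.6% of all genes rose and 6.33% fell. The median log2 fold change was 1.36, with 0.02 over all genes. The 18 members that rose in both comparisons were 66.7% of the 27 that rose with DMSO and 94.7% of the 19 that rose with imiquimod. The remaining member that rose with imiquimod was Ephx1. Overlaps of calls were counted for members only and not over all genes. With library size alone 20 members rose and 0 fell, and 2443 genes were called higher and 496 lower, against 1852 and 1014 in the TMM scaling, with a median of all genes of 0.42. Summed macrophage markers, all 9 with reads, were 859 to 1827 CPM in knockout and 285 to 757 CPM in Cre-negative imiquimod libraries. Neutrophil markers summed to 53560 to 113300 CPM in knockout and 85970 to 192800 CPM in Cre-negative imiquimod libraries, with Elane at 0 in both groups and Mpo in the Cre-negative one. Endothelial markers, all 5 with reads, summed to 70.0 to 148 CPM in knockout and 19.2 to 24.8 CPM in Cre-negative imiquimod libraries, and 4 of the 5 rose, against 3 of the 9 macrophage markers. Keratinocyte markers, all 7 with reads, summed to 6517 to 10760 CPM in knockout and 13440 to 23840 CPM in Cre-negative imiquimod libraries, and 0 rose and 2 fell. The part of these cells in the member values was not tested.

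**Figure D2:**
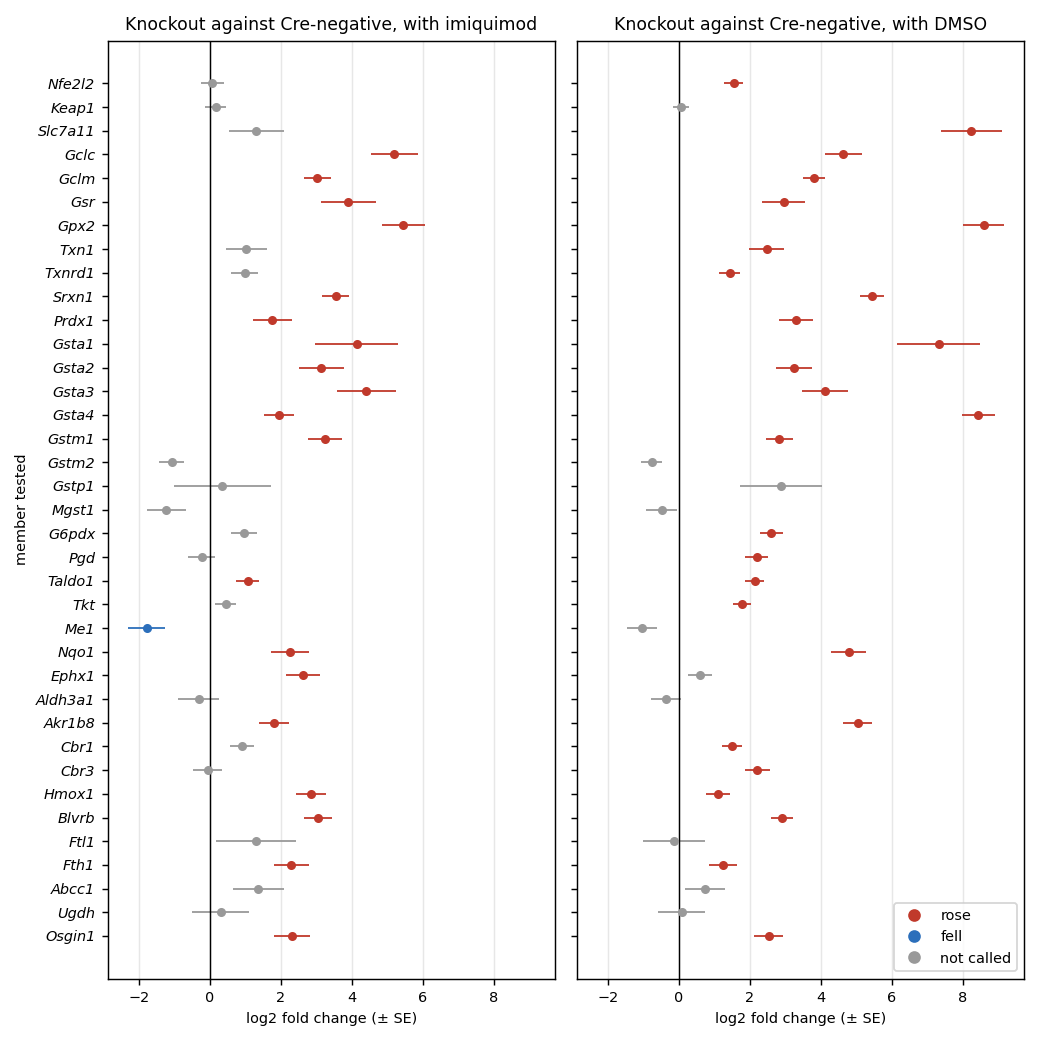
Log2 fold change (± SE) of each of the 37 members tested, knockout over Cre-negative skin, with imiquimod (left) and DMSO (right). Red members rose, blue fell and grey were not called. With DMSO 27 points are red and 0 blue, and with imiquimod 19 are red and Me1 is blue.

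Of the 5 members of glutathione synthesis and use, 4 rose. Gclc rose by 5.20 ± 0.66 on the log2 scale (adjusted p = 3.6e-04), standing at 354 to 831 CPM in knockout and 11.4 to 20.9 CPM in Cre-negative imiquimod libraries. Gpx2 had 354 and 564 CPM in knockout and 7.60 and 13.3 CPM in Cre-negative imiquimod libraries (5.45 ± 0.61, adjusted p = 2.0e-04). Gclm had 201 and 308 CPM in knockout and 33.4 and 28.7 CPM in Cre-negative imiquimod libraries (3.04 ± 0.38), and Gsr rose by 3.90 ± 0.77. Slc7a11 had 390.3 and 798 CPM in knockout and 359.5 and 120.1 CPM in Cre-negative imiquimod libraries. The cystine importer was not called, though its groups did not overlap (1.31 ± 0.77, adjusted p = 0.27), and it was called without the filter on low counts (adjusted p = 0.028).

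Srxn1 had 690.1 and 1484 CPM in knockout and 98.6 and 87.5 CPM in Cre-negative imiquimod libraries (3.55 ± 0.39, adjusted p = 1.9e-04). Prdx1 had 2173 and 7236 CPM in knockout and 992 and 1779 CPM in Cre-negative imiquimod libraries (1.76 ± 0.55), a wide spread among knockout libraries. Txn1 (1.03 ± 0.58) and Txnrd1 (0.98 ± 0.37) were not called, though DESeq2 called Txnrd1 higher (adjusted p = 0.031). Among the transferases, Gstm1 had 34.5 and 65.7 CPM in knockout and 7.75 and 3.03 CPM in Cre-negative imiquimod libraries (3.25 ± 0.49, adjusted p = 9.3e-04). Gsta2 (3.15 ± 0.63) and Gsta3 (4.41 ± 0.83) rose as well, and Gsta1 had 81 counts in knockout and 4 in Cre-negative imiquimod libraries, a ratio of 18.1 with an exact 95% interval of 6.80 to 68.0. Gsta4 had 365 and 628 CPM in knockout and 90.0 and 167 CPM in Cre-negative imiquimod libraries (1.95 ± 0.42, adjusted p = 0.0074). Knockout imiquimod replicate 1 held less than replicate 2 of the Gsta genes, Prdx1 and Nqo1, at 15 against 53.5 CPM for Gsta2. Gstm2 (-1.07 ± 0.36), Gstp1 (0.36 ± 1.36) and Mgst1 (-1.23 ± 0.55) were not called, though DESeq2 called Gstm2 lower (adjusted p = 0.040).

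Of the 5 NADPH enzymes, 1 rose and 1 fell under imiquimod. Taldo1 rose, with 596 and 684 CPM in knockout and 249 and 359 CPM in Cre-negative imiquimod libraries (1.07 ± 0.32, adjusted p = 0.034). G6pdx (0.97 ± 0.38), Pgd (-0.23 ± 0.38) and Tkt (0.45 ± 0.30) were not called, though DESeq2 called G6pdx higher (1.01, adjusted p = 0.043). Me1 fell, with 17.0 and 64.2 CPM in knockout and 152 and 126 CPM in Cre-negative imiquimod libraries (-1.77 ± 0.52, adjusted p = 0.032). The 6 sebocyte markers, all with reads, summed to 76.2 to 98.5 CPM in knockout and 294 to 413 CPM in Cre-negative imiquimod libraries, and their part in the value of Me1, a lipogenic gene, was not tested.

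Nqo1 had 36.7 and 105 CPM in knockout and 7.32 and 21.9 CPM in Cre-negative imiquimod libraries (2.27 ± 0.54, adjusted p = 0.012). Akr1b8 had 97.7 and 124 CPM in knockout and 40.5 and 22.9 CPM in Cre-negative imiquimod libraries (1.81 ± 0.43). Ephx1 had 6.16 and 12 CPM in knockout and 1.87 and 1.14 CPM in Cre-negative imiquimod libraries (2.63 ± 0.47, adjusted p = 0.0028), with no overlap between the genotypes. Cbr1 (0.90 ± 0.34), Cbr3 (-0.06 ± 0.40) and Aldh3a1 (-0.32 ± 0.58) were not called, though Cbr1 was with library size alone (1.35, adjusted p = 0.044). Hmox1 had 649.5 and 261 CPM in knockout and 74.5 and 52.2 CPM in Cre-negative imiquimod libraries (2.85 ± 0.42, adjusted p = 9.0e-04). Blvrb had 165 and 226 CPM in knockout and 16.1 and 31.0 CPM in Cre-negative imiquimod libraries (3.04 ± 0.39, adjusted p = 4.1e-04). Fth1 rose by 2.30 ± 0.50 and Osgin1, with 10.2 and 6.91 CPM in knockout and 2.01 and 1.48 CPM in Cre-negative imiquimod libraries, by 2.31 ± 0.51. Ftl1 (1.29 ± 1.12), Abcc1 (1.36 ± 0.72) and Ugdh (0.32 ± 0.80) were not called, and neither was Keap1 (0.17 ± 0.29).

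Nfe2l2 itself had 163 and 142 CPM in knockout and 189 and 102 CPM in Cre-negative imiquimod libraries. These values overlapped (0.07 ± 0.32, adjusted p = 0.91), and the sign turned without Cre-negative imiquimod replicate 2 or knockout imiquimod replicate 1. With 2 libraries a group, leaving out 1 ended the calls of Prdx1 without knockout imiquimod replicate 2 (0.59), Cre-negative imiquimod replicate 1 (1.35) or Cre-negative imiquimod replicate 2 (2.29), Gsta1 without knockout imiquimod replicate 2 (2.04), Cre-negative imiquimod replicate 1 (4.57) or Cre-negative imiquimod replicate 2 (3.61), Gsta4 without knockout imiquimod replicate 2 (1.44) or Cre-negative imiquimod replicate 1 (1.5), Taldo1 without knockout imiquimod replicate 1 (1.17), knockout imiquimod replicate 2 (0.92) or Cre-negative imiquimod replicate 1 (0.76) and Me1 without knockout imiquimod replicate 1 (-1.11), Cre-negative imiquimod replicate 1 (-1.69) or Cre-negative imiquimod replicate 2 (-1.86). The same held for Nqo1 without knockout imiquimod replicate 2 (1.24) or Cre-negative imiquimod replicate 1 (1.64), Akr1b8 without Cre-negative imiquimod replicate 2 (1.49), Fth1 without knockout imiquimod replicate 1 (1.96) or Cre-negative imiquimod replicate 1 (1.95) and Osgin1 without knockout imiquimod replicate 1 (2.0) or Cre-negative imiquimod replicate 2 (2.12). Without Cre-negative imiquimod replicate 1, 13 members were called. Without both libraries high in 18S rRNA, of which Cre-negative imiquimod replicate 2 is one, Prdx1 (2.23, adjusted p = 0.066), Gsta1 (3.55, adjusted p = 0.11), Me1 (-1.92, adjusted p = 0.061), Akr1b8 (1.43, adjusted p = 0.079) and Osgin1 (2.06, adjusted p = 0.068) were not called. The call of Me1 also ended with library size alone (-1.35, adjusted p = 0.16) and with the compared groups alone (adjusted p = 0.052), that of Taldo1 without the filter (adjusted p = 0.11) and with the compared groups alone (adjusted p = 0.15), and that of Prdx1 with those groups alone (adjusted p = 0.068) and with a sex term (adjusted p = 0.056). Since all libraries compared here are male, the sex term left the log2 fold change of Prdx1 at 1.76 and changed only its estimate of error.

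**Figure D3:**
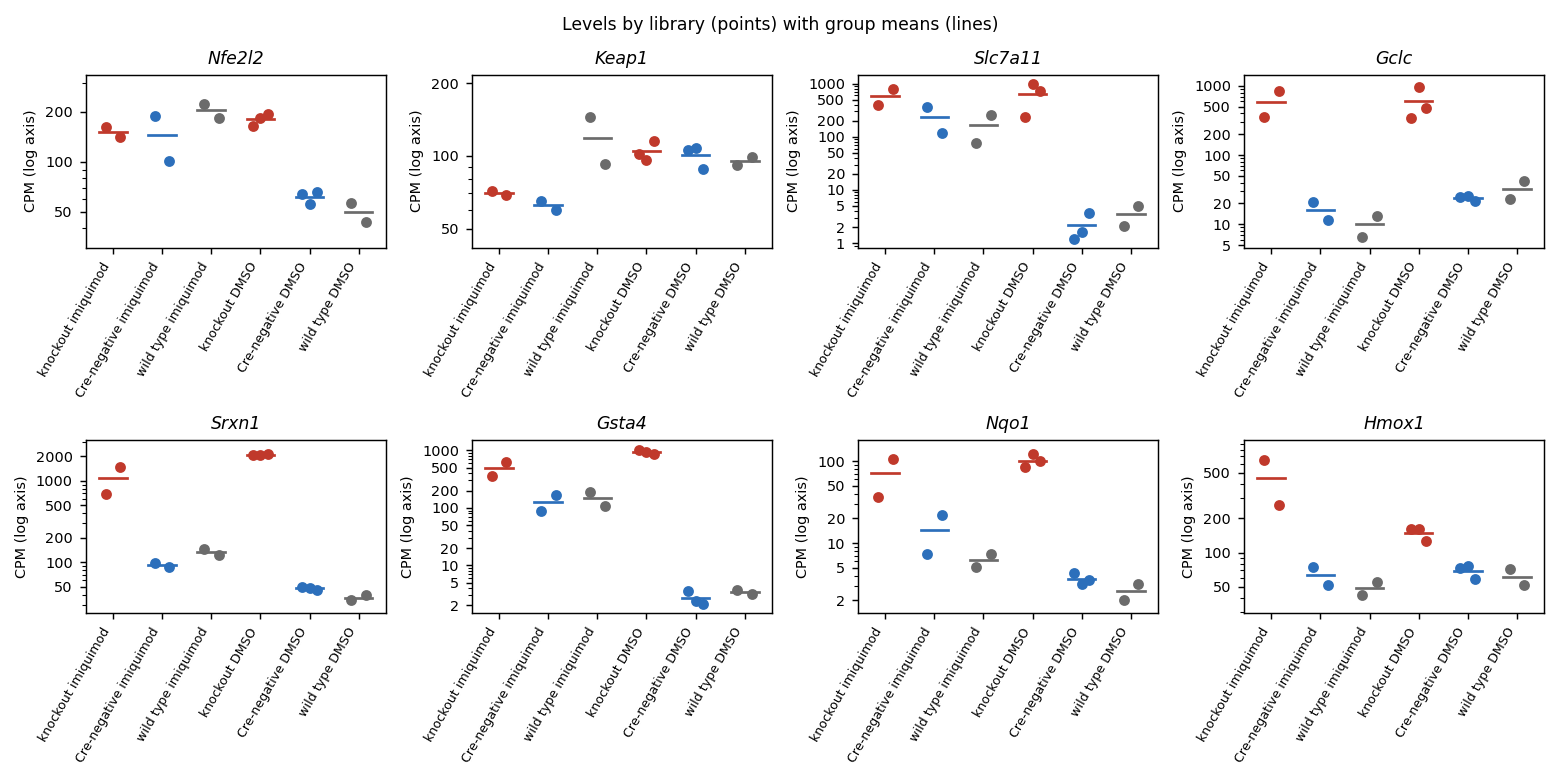
CPM (log axis) of 8 members in each library (points) with group means (lines), for knockout (red), Cre-negative (blue) and wild-type skin (grey) with imiquimod or DMSO. Gclc, Srxn1 and Nqo1 are above every control library in knockout skin with either treatment, and Slc7a11, Gsta4 and Nfe2l2 are above the DMSO controls in imiquimod-treated control skin too.

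Imiquimod against DMSO in control skin asked which members differ with imiquimod cream when Nedd8 is intact. Without a group given the cream alone, drug, cream and inflammation cannot be told apart here. In Cre-negative skin 10 members rose and 3 fell, where 8.15% of all genes rose and 10.1% fell, and in wild-type skin 7 were higher and 5 lower, where 9.59% rose and 11.8% fell. Members' medians were 0.43 in Cre-negative and -0.07 in wild-type skin, against -0.06 and -0.09 over all genes. Scaled by library size, 5 members were higher and 7 lower in Cre-negative skin, and 7 higher and 7 lower in wild-type skin. Of all genes, that scaling called 537 higher and 3141 lower in Cre-negative skin, against 1307 and 1614 in the TMM scaling, and 551 higher and 3608 lower in wild-type skin, against 1537 and 1896, with medians of all genes of -0.63 and -0.76. The members' medians were then -0.14 in Cre-negative skin, where the sign turned, and -0.65 in wild-type skin. These comparisons share no library, and 6 members rose in both, 60% of the Cre-negative and 85.7% of the wild-type list. They were Nfe2l2, Slc7a11, Gsta4, Pgd, Akr1b8 and Cbr3. The 7 members that rose in wild-type skin also rose in knockout against Cre-negative DMSO skin, which shares no library with it, and were 25.9% of the 27 that rose there. Since 27 of the 37 members tested rose there and overlaps over all genes were not counted, these shares have no background beside them. Summed neutrophil markers stood at 85970 to 192800 CPM in Cre-negative imiquimod and 65.5 to 690.2 CPM in Cre-negative DMSO libraries, and at 64090 to 152900 CPM in wild-type imiquimod and 80.4 to 230.4 CPM in wild-type DMSO libraries. Elane had 0 counts in all imiquimod groups and Ly6g in both control DMSO groups, while both control genotypes had less of muscle and fat markers with imiquimod. Skeletal muscle markers, all 6 with reads in every group, summed to 726 to 1101 CPM in Cre-negative imiquimod and 5514 to 15400 CPM in Cre-negative DMSO libraries, and to 1249 to 2081 CPM in wild-type imiquimod and 6260 to 8692 CPM in wild-type DMSO libraries, with 6 and 4 of the 6 called lower. Adipocyte markers, all 5 with reads, summed to 46.6 to 68.0 CPM in Cre-negative imiquimod and 99.9 to 336 CPM in Cre-negative DMSO libraries, and to 47.0 to 89.7 CPM in wild-type imiquimod and 661 to 1162 CPM in wild-type DMSO libraries, with 4 and 5 of the 5 called lower. Keratinocyte markers summed to 13440 to 23840 CPM in Cre-negative imiquimod and 9352 to 16860 CPM in Cre-negative DMSO libraries. In wild-type skin they summed to 17550 to 21460 CPM with imiquimod and 7359 to 8551 CPM with DMSO. In each genotype 2 of the 7 were called higher and 0 lower. The part of neutrophils, keratinocytes, muscle and fat cells in the member values was not tested.

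Slc7a11 rose most in both. Wild-type imiquimod libraries had 77.1 and 253 CPM, and the log2 fold change was 6.81 ± 0.83 (adjusted p = 1.8e-04) in Cre-negative and 5.52 ± 0.94 (adjusted p = 0.0018) in wild-type skin. Gsta4 reached 191 and 108 CPM in wild-type imiquimod libraries (5.58 ± 0.42, adjusted p = 1.3e-05 in Cre-negative and 5.44 ± 0.50, adjusted p = 5.6e-05 in wild-type skin). All imiquimod control libraries lay above every DMSO control library and under every knockout DMSO library. Akr1b8 had 48.0 and 28.5 CPM in wild-type imiquimod libraries (3.19 ± 0.40 in Cre-negative and 3.44 ± 0.47 in wild-type skin). Nfe2l2 had 224 and 184 CPM in wild-type imiquimod libraries (1.23 ± 0.29, adjusted p = 0.011 in Cre-negative and 2.03 ± 0.33, adjusted p = 0.0015 in wild-type skin). In knockout DMSO skin this transcript stood at 165 to 194 CPM, so the wild-type imiquimod values lay within or above that range and the Cre-negative ones within or under it. Pgd had 791 and 409.5 CPM and Cbr3 87.1 and 134 CPM in wild-type imiquimod libraries, with log2 fold changes of 2.20 ± 0.39 and 2.26 ± 0.43.

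A further 4 members were called higher in Cre-negative skin and not in wild-type skin, and 1 in wild-type and not in Cre-negative skin. Gpx2 (2.77 ± 0.49), Nqo1 (2.0 ± 0.48), G6pdx (1.19 ± 0.34) and Taldo1 (1.01 ± 0.29) rose in Cre-negative skin, while wild-type values were 1.41 ± 0.53, 1.24 ± 0.55, 0.91 ± 0.38 and 0.59 ± 0.32, not called. Gpx2 was called in wild-type skin with DESeq2 (adjusted p = 0.044), without the filter on low counts (adjusted p = 0.015), without wild-type imiquimod replicate 2 (1.99, adjusted p = 0.029) and without both libraries high in 18S rRNA (adjusted p = 0.038), Nqo1 without the filter (adjusted p = 0.049) and G6pdx without those libraries (adjusted p = 0.049). Srxn1 rose in wild-type skin, with 146 and 123 CPM in wild-type imiquimod libraries (1.88 ± 0.36, adjusted p = 0.0038), and stood at 0.95 ± 0.32 in Cre-negative skin (adjusted p = 0.053), where it was called with DESeq2 (adjusted p = 0.014), with a stricter filter (adjusted p = 0.048) and with the compared groups alone (adjusted p = 0.020). The difference between the control genotypes was not tested. Neither subunit of glutamate-cysteine ligase rose. Gclm stood at 0.39 ± 0.32 in Cre-negative and 0.20 ± 0.35 in wild-type skin, both not called. Gclc was not called in Cre-negative skin (-0.58 ± 0.52) and fell in wild-type skin (-1.73 ± 0.57, adjusted p = 0.046), with 6.55 and 13.3 CPM in wild-type imiquimod and 22.9 and 42.5 CPM in wild-type DMSO libraries.

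Ephx1 and Aldh3a1, enzymes of epoxide and aldehyde clearance, fell in both. Ephx1 had 0.848 and 1.56 CPM in wild-type imiquimod libraries (-3.06 ± 0.46, adjusted p = 7.3e-04 in Cre-negative and -3.19 ± 0.47, adjusted p = 7.8e-04 in wild-type skin). Aldh3a1 stood at 1.88 to 5.77 CPM in wild-type imiquimod and 9.75 to 15 CPM in wild-type DMSO libraries (-2.50 ± 0.54 in Cre-negative and -1.71 ± 0.53 in wild-type skin). Gstm1 fell in Cre-negative skin (-1.34 ± 0.44) and was not called in wild-type skin (-1.20 ± 0.46), though DESeq2 called it there (adjusted p = 0.040), as did edgeR's test with library size alone (-1.87, adjusted p = 0.037) and without both libraries high in 18S rRNA (adjusted p = 0.033). Gsta3 and Ftl1 fell in wild-type skin on few reads. Gsta3 had 4 counts in wild-type imiquimod and 55 in wild-type DMSO libraries, a ratio of 0.0644 with an exact 95% interval of 0.0169 to 0.174, and Ftl1 had 4 and 121 counts, a ratio of 0.0293 with an exact 95% interval of 0.00785 to 0.0769.

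Of the remaining members, Hmox1, Blvrb and Osgin1 were not called in either control genotype. Blvrb was called lower in both with library size alone (-1.13 in Cre-negative and -1.52 in wild-type skin), and without wild-type imiquimod replicate 2 Osgin1 was called higher in wild-type skin (1.61, adjusted p = 0.028). Hmox1 had 42.3 and 55.4 CPM in wild-type imiquimod libraries (-0.13 ± 0.36 in Cre-negative and -0.34 ± 0.40 in wild-type skin). Blvrb had 18.9 and 15.8 CPM in wild-type imiquimod libraries (-0.49 ± 0.34 and -0.83 ± 0.37, in the same order of genotypes). Osgin1 had 5.89 and 2.26 CPM in wild-type imiquimod libraries (-0.02 ± 0.47 and 0.99 ± 0.48). Prdx1 (0.98 ± 0.48 and 0.75 ± 0.54), Txn1 (1.17 ± 0.52 and -0.44 ± 0.58) and Txnrd1 (0.43 ± 0.33 and 0.34 ± 0.37) were not called, though Txn1 was called higher in Cre-negative skin without the filter on low counts (adjusted p = 0.031) and with the compared groups alone (adjusted p = 0.036). Keap1 had 145 and 93.0 CPM in wild-type imiquimod libraries and 65.1 and 59.7 CPM in Cre-negative imiquimod libraries (-0.69 ± 0.27 in Cre-negative and 0.32 ± 0.29 in wild-type skin, neither called). With library size alone Keap1 fell in Cre-negative skin (-1.25, adjusted p = 0.011), and it did so with DESeq2 (-0.68, adjusted p = 0.047). Further calls appeared under some alternatives. In Cre-negative skin they were Tkt with DESeq2 (0.70, adjusted p = 0.031), Fth1 with the compared groups alone (1.03, adjusted p = 0.039), Gsta2 with those groups (-1.09, adjusted p = 0.042) and with library size alone (-1.67, adjusted p = 0.047), and Gstm2 with library size alone (-0.93, adjusted p = 0.034). In wild-type skin Tkt was called higher with DESeq2 (0.82, adjusted p = 0.017) and without both libraries high in 18S rRNA (0.86, adjusted p = 0.032), Mgst1 lower with DESeq2 (-1.45, adjusted p = 0.038), without the filter (-1.43, adjusted p = 0.013) and without wild-type imiquimod replicate 2 (-2.42, adjusted p = 0.022), Gstp1 lower without the filter (-1.68, adjusted p = 0.029) and Ugdh lower without that replicate (-2.81, adjusted p = 0.044).

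Leaving out 1 library ended several of these calls. In Cre-negative skin this was so for Nfe2l2 without Cre-negative DMSO replicate 2 (1.16) or Cre-negative imiquimod replicate 1 (0.81), G6pdx without Cre-negative DMSO replicate 1 (1.16), Cre-negative DMSO replicate 3 (1.03) or Cre-negative imiquimod replicate 1 (0.82), Pgd without Cre-negative imiquimod replicate 2 (1.47) and Taldo1 without Cre-negative DMSO replicate 2 (1.03), Cre-negative DMSO replicate 3 (0.87) or Cre-negative imiquimod replicate 2 (0.72). It also held for Nqo1 without Cre-negative DMSO replicate 2 (1.90) or Cre-negative imiquimod replicate 2 (0.99), Cbr3 without Cre-negative DMSO replicate 1 (1.47), Cre-negative DMSO replicate 2 (1.47) or Cre-negative imiquimod replicate 2 (1.08), Aldh3a1 without Cre-negative imiquimod replicate 2 (-2.12) and Gstm1 without Cre-negative DMSO replicate 1 (-1.27), Cre-negative DMSO replicate 2 (-1.32), Cre-negative DMSO replicate 3 (-1.44) or Cre-negative imiquimod replicate 2 (-0.79). Without Cre-negative imiquimod replicate 2, 7 members were called there, and 8 without Cre-negative DMSO replicate 2. In wild-type skin the calls ended for Gclc without wild-type DMSO replicate 1 (-2.02), wild-type DMSO replicate 2 (-1.20) or wild-type imiquimod replicate 1 (-1.30), Gsta3 without wild-type DMSO replicate 2 (-3.53) or wild-type imiquimod replicate 1 (-2.87), Aldh3a1 without wild-type DMSO replicate 1 (-1.29), wild-type DMSO replicate 2 (-1.99) or wild-type imiquimod replicate 1 (-1.11) and Ftl1 without wild-type DMSO replicate 1 (-4.97), wild-type DMSO replicate 2 (-5.06), wild-type imiquimod replicate 1 (-8.86) or wild-type imiquimod replicate 2 (-4.26). With library size alone, Nfe2l2 (0.70, adjusted p = 0.17), G6pdx (0.66, adjusted p = 0.30), Taldo1 (0.41, adjusted p = 0.29), Nqo1 (1.34, adjusted p = 0.089) and Cbr3 (0.85, adjusted p = 0.17) lost their calls in Cre-negative skin. A sex term ended those of Gstm1 (-1.43, adjusted p = 0.067), G6pdx (1.03, adjusted p = 0.095) and Taldo1 (0.87, adjusted p = 0.095). In wild-type skin, where all libraries are female, that term cannot adjust the comparison. The log2 fold change of Gclc stayed at -1.73 there, and its call ended (adjusted p = 0.060) through the estimate of error alone. Without both libraries high in 18S rRNA, Gstm1 (-0.72, adjusted p = 0.31), Taldo1 (0.79, adjusted p = 0.12), Nqo1 (1.05, adjusted p = 0.23), Aldh3a1 (-2.05, adjusted p = 0.075) and Cbr3 (1.14, adjusted p = 0.11) were not called in Cre-negative skin, and Taldo1 was not called there without the filter (adjusted p = 0.085). With the compared groups alone, Gclc (adjusted p = 0.069) and Aldh3a1 (adjusted p = 0.11) were not called in wild-type skin.

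Imiquimod against DMSO in knockout skin gave calls in 3 of 37 members. Of these, 2 rose and 1 fell, where 8.56% of all genes rose and 2.52% fell, so the share of members called was near that of all genes. The median was -0.36, against -0.04 over all genes. Fth1 rose, standing at 2770.1 and 1801 CPM in knockout imiquimod and 339, 809 and 476 CPM in knockout DMSO libraries (2.08 ± 0.43, adjusted p = 0.0074). Hmox1 also rose (1.61 ± 0.36, adjusted p = 0.011), with 649.5 and 261 CPM in knockout imiquimod libraries. Both genes are part of heme and iron handling, which macrophages also carry out, and summed macrophage markers were 859 to 1827 CPM in knockout imiquimod and 229 to 601 CPM in knockout DMSO libraries. Keratinocyte markers summed to 6517 to 10760 CPM in knockout imiquimod and 17000 to 23020 CPM in knockout DMSO libraries. Of these 7 markers 0 were called, with a median log2 fold change of -0.93. How far macrophages and keratinocytes enter the member values was not tested. Aldh3a1 fell (-2.44 ± 0.54, adjusted p = 0.010), as in the control genotypes. The treatment went with sex in knockout skin, and no member was called with a sex term (Fth1 2.54, adjusted p = 0.14, Hmox1 1.25, adjusted p = 0.48 and Aldh3a1 -3.02, adjusted p = 0.14). None was called without knockout imiquimod replicate 1 (Fth1 1.73, Aldh3a1 -2.15), and the call of Hmox1 ended without knockout DMSO replicate 3 (1.51) or knockout imiquimod replicate 1 (0.81) and with the compared groups alone (adjusted p = 0.063). Without knockout imiquimod replicate 2, 7 members were called, with Srxn1 (-1.60), Gsta2 (-2.36), Me1 (-2.07) and Cbr3 (-1.57) lower in addition. DESeq2 called Srxn1 lower (-0.92, adjusted p = 0.025), and without the filter Gsr was called higher (1.18, adjusted p = 0.047) and Gstp1 lower (-1.46, adjusted p = 0.047).

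The difference between the responses was tested directly, as the response of knockout skin minus that of Cre-negative skin. It was negative and past the threshold in 11 members and positive in 2, where 9.63% of all genes were called negative and 14% positive. With library size alone the split was 5 negative and 2 positive, and over all genes 511 negative and 3650 positive, against 1543 and 2242 in the TMM scaling, with a median of all genes of 0.84 against 0.11. The members' median was -0.74, and 0.0093 with library size alone, where its sign turned. Of 6 skeletal muscle markers 4 were called positive, with a median of 3.28, and of 9 macrophage markers 3. Of 7 keratinocyte markers 0 were called positive and 3 negative, with a median of -1.29. The part of these 3 cell types in the member values was not tested. Slc7a11 had the most negative difference (-6.93 ± 1.11, adjusted p = 0.0017), with responses of -0.13 ± 0.70 in knockout and 6.81 ± 0.83 in Cre-negative skin. Gsta4 followed (-6.49 ± 0.59, adjusted p = 8.0e-05), with responses of -0.91 ± 0.38 in knockout and 5.58 ± 0.42 in Cre-negative skin. Knockout DMSO libraries of Gsta4 stood above every control library with imiquimod, while those of Slc7a11 overlapped them. Akr1b8 (-3.23 ± 0.56, adjusted p = 0.0025) and Pgd (-2.42 ± 0.50, adjusted p = 0.0052) were also called. Pgd, at 310.5 and 343 CPM in knockout and 371 and 394 CPM in Cre-negative imiquimod libraries, was not called between genotypes under imiquimod. These 4 kept the call under all 19 alternatives tried.

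**Figure D4:**
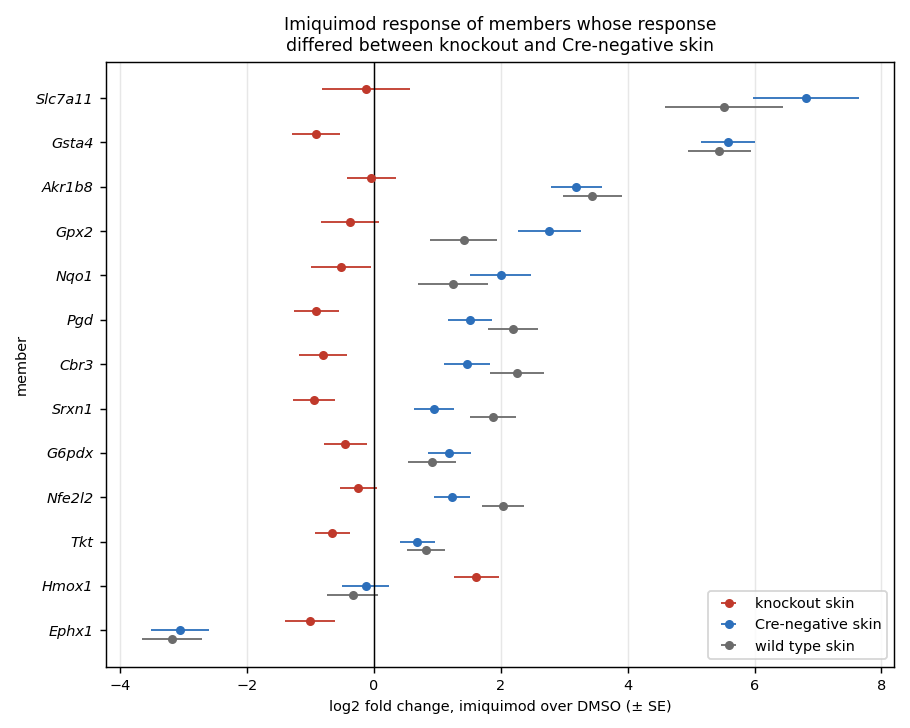
Log2 fold change of imiquimod over DMSO (± SE) in knockout, Cre-negative and wild-type skin for the 13 members whose response differed between knockout and Cre-negative skin. All knockout points lie below 0 except that of Hmox1 (1.61), and Slc7a11 in Cre-negative skin is highest (6.81).

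The other negative differences were Gpx2 (-3.14 ± 0.68), Nqo1 (-2.52 ± 0.68), Cbr3 (-2.26 ± 0.53), Srxn1 (-1.89 ± 0.46), G6pdx (-1.64 ± 0.49), Nfe2l2 (-1.48 ± 0.42, adjusted p = 0.023) and Tkt (-1.34 ± 0.39). Cbr3 had 105 and 253 CPM in knockout and 142 and 229 CPM in Cre-negative imiquimod libraries. Tkt had 831 and 699.6 CPM in knockout and 605 and 518 CPM in Cre-negative imiquimod libraries, with 560.3 and 489 CPM in wild-type imiquimod skin. G6pdx had 26.3 and 36.6 CPM in knockout and 20.7 and 11.7 CPM in Cre-negative imiquimod libraries, with 18.2 and 18.2 CPM in wild-type imiquimod skin. None of these 3 genes was called between genotypes under imiquimod by edgeR's test, though G6pdx was by DESeq2, as given above. The positive differences were Ephx1 (2.05 ± 0.57, adjusted p = 0.022), whose response was -1.01 ± 0.39 in knockout and -3.06 ± 0.46 in Cre-negative skin, and Hmox1 (1.75 ± 0.52, adjusted p = 0.028). Without knockout imiquimod replicate 1, 5 members were called, and the calls ended for Gpx2 (-2.83), Srxn1 (-1.44), G6pdx (-1.42), Nfe2l2 (-1.58), Tkt (-1.47), Nqo1 (-1.94), Cbr3 (-1.76) and Hmox1 (0.95). A sex term, with treatment and sex going together in knockout skin, left Slc7a11, Gsta4, Akr1b8 and Pgd called. Other single libraries ended the calls of Nfe2l2 without Cre-negative DMSO replicate 2 (-1.40), knockout imiquimod replicate 2 (-1.39) or Cre-negative imiquimod replicate 1 (-1.03), G6pdx without knockout DMSO replicate 3 (-1.40), Cre-negative DMSO replicate 1 (-1.61), Cre-negative DMSO replicate 3 (-1.48) or Cre-negative imiquimod replicate 1 (-1.25), Tkt without Cre-negative DMSO replicate 1 (-1.31), Cre-negative DMSO replicate 3 (-1.28), knockout imiquimod replicate 2 (-1.25) or Cre-negative imiquimod replicate 1 (-1.29), Nqo1 without Cre-negative imiquimod replicate 2 (-1.48), Ephx1 without knockout imiquimod replicate 2 (1.46) or Cre-negative imiquimod replicate 2 (1.72) and Hmox1 without knockout DMSO replicate 3 (1.65), Cre-negative DMSO replicate 1 (1.70), Cre-negative DMSO replicate 2 (1.68) or Cre-negative imiquimod replicate 2 (1.53). Scaled by library size, Nfe2l2 (-0.78, adjusted p = 0.29), Srxn1 (-1.11, adjusted p = 0.13), G6pdx (-0.94, adjusted p = 0.30), Tkt (-0.58, adjusted p = 0.30), Nqo1 (-1.66, adjusted p = 0.13) and Cbr3 (-1.44, adjusted p = 0.11) were not called. Neither Nfe2l2 (adjusted p = 0.063) nor Tkt (adjusted p = 0.12) was called without the filter, and without both libraries high in 18S rRNA Nqo1 (-1.70, adjusted p = 0.10), Ephx1 (1.48, adjusted p = 0.14) and Hmox1 (1.48, adjusted p = 0.11) were not. Called only under an alternative were Taldo1 with DESeq2 (-1.06, adjusted p = 0.039), Gstp1 without the filter (-2.52, adjusted p = 0.0048) and without knockout imiquimod replicate 2 (-7.49, adjusted p = 0.037), and Prdx1 (-2.69, adjusted p = 0.020) and Me1 (-2.02, adjusted p = 0.030) without that replicate.

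Wild-type imiquimod skin gave a second control for several members described above. Gpx2 had 14.5 and 6.31 CPM, Nqo1 5.18 and 7.32 CPM and Gclm 35.2 and 37.5 CPM, all under the lowest knockout value of the same gene. Prdx1 had 528 and 1037 CPM, Gstm1 4.85 and 5.92 CPM, Taldo1 288 and 227 CPM and Abcc1 8.90 and 24.1 CPM. Abcc1 had 30.4 and 57.2 CPM in knockout and 24.8 and 9.49 CPM in Cre-negative imiquimod libraries, and was not called in any of the 8 comparisons. Without the filter on low counts it was called between these groups (1.39, adjusted p = 0.022), and without both libraries high in 18S rRNA it was called higher in knockout DMSO skin than in Cre-negative (1.25, adjusted p = 0.041) and wild-type DMSO skin (1.48, adjusted p = 0.039).

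Other genes of the pathway were read from 4 further lists. Among 11 genes of the cullin 3 ligase and of NEDD8 conjugation, 3 rose and 0 fell in knockout against Cre-negative DMSO skin, where 14% of all genes rose, with a median of 0.09. They were Ube2m (1.41 ± 0.25, adjusted p = 0.0013) and Ube2f (0.93 ± 0.29), the enzymes that carry NEDD8 to cullins, and Cops5 (1.01 ± 0.29), the subunit that removes it. Cul3 itself stood at -0.81 ± 0.30 (adjusted p = 0.059). Of 13 partners and competitors of NRF2, 2 rose and 1 fell, where 14% of all genes rose and 15.7% fell. Maff (1.44 ± 0.27, adjusted p = 0.0015) and Mafg (0.76 ± 0.24) are small MAF partners, and Bach2 (-2.88 ± 0.38, adjusted p = 1.5e-04) is a repressor that binds the same element. Bach2 averaged 1.35 ± 0.706 CPM in knockout and 10.3 ± 1.47 CPM in Cre-negative DMSO skin (SD, n = 3 each), and it fell with imiquimod too in Cre-negative (-3.56 ± 0.47) and wild-type skin (-3.09 ± 0.44).

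Of 22 further genes reported as NRF2 targets, 19 were tested, 10 rose and 1 fell in the same comparison, with a median of 1.0. Of all genes, 14% rose and 15.7% fell there. Gsto1 (6.11 ± 0.41, adjusted p = 1.4e-06), an omega-class transferase, and Ptgr1 (2.62 ± 0.31), which reduces prostaglandin and lipid enones, rose, as did Gstm4 (2.21 ± 0.30). The gene that fell was Gstm5 (-1.84 ± 0.28), named after its value was seen. It lies in the same gene family as Gstm4, and reads of such close relatives can be split between them. Of 24 antioxidant enzymes outside the members, 8 rose and 3, Gpx3 (-1.19 ± 0.42), Msra (-1.03 ± 0.34) and Selenop (-1.80 ± 0.46), fell, with a median of 0.27. Gss (5.24 ± 0.39, adjusted p = 2.7e-06), glutathione synthetase, which completes glutathione after Gclc and Gclm, changed most, followed by Glrx (2.25 ± 0.34) and Prdx6 (1.52 ± 0.26). With imiquimod in knockout against Cre-negative skin, 5 of the 19 further targets rose, namely Abcc4, Gsto1, Slc48a1, Gstm4 and Trim16, and Gstm5 and Gstm6 fell. Of the 24 antioxidant enzymes, Sod3, Gpx8, Prdx6, Gss and Msrb1 rose and Gpx1 fell there, where 11.6% of all genes rose and 6.33% fell. Of the partners, Nfe2 (3.37 ± 1.02) and Sqstm1 (1.28 ± 0.29), an adaptor that binds KEAP1, rose and Nfe2l1 and Nfe2l3, relatives of NRF2, fell, and of the ligase genes Rbx1 (-1.03 ± 0.32), its RING subunit, fell. Genes of this comparison were named after their values were seen.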

How the data were processed

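RNA of mouse skin was measured in 14 libraries of 6 groups with QuantSeq FWD, per the labels' protocols, which counts tags near the 3′ end of transcripts. GRCm38 and GRCm39 are the builds in the submitters' processing notes, which also list DESeq2, featureCounts and STAR, with no roles or versions, and the deposited coordinates are those of GRCm39 for most genes (1405 of 52029 shared genes start as in GRCm38). The deposited table holds raw counts per gene from featureCounts, per the file headers, and its gene length column was not used. Settings for strand and multimapping reads were not given in the sources.

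Members and lists were chosen with earlier results of these data known. Counts were fitted with edgeR 4.0.16 in R 4.3.3 (limma 3.58.1): filterByExpr by group, TMM scaling, 1 mean per group, quasi-likelihood tests over all 16027 genes kept. CPM values use TMM-scaled library sizes. The labels give replicate numbers and state no pairing. Deviations of same-numbered knockout and Cre-negative DMSO libraries correlated at 0.10 to 0.26 in all 3 pairs. Knockout replicate 3 with Cre-negative replicate 2 also reached 0.10. Over all groups, same-numbered pairs ran from -0.32 to 0.49 and pairs with different numbers from -0.49 to 0.37. These correlations do not settle whether the numbers pair libraries, so the replicate block was run as an alternative only. The fit was tested on simulated counts with few changed genes, as many raised as lowered. That test did not cover wide or one-sided shifts. Library totals ran from 5552954 to 34362477 counts, so genes of few counts have wide errors, and intervals cover counting error only. Library sex was read from Xist and 4 Y-linked genes. All members are named, and values in every library are given for regulators, for 2 members of each other role group with the smallest p in knockout against Cre-negative DMSO skin, and for members called in the difference of responses. Alternatives were DESeq2 1.42.0, its size factors, library size alone, no or a stricter filter (1 CPM in 3 libraries), the groups compared alone, replicate block, sex term and single libraries left out, and, added after seeing the data, both libraries high in 18S rRNA left out and other replicate pairings.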

Additional observations from a re-analysis of the deposited data

Results flagged for a closer look

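Between knockout and Cre-negative skin, the log2 response to imiquimod differed by edgeR's interaction test in 13 members. The difference, knockout minus Cre-negative, was -6.93 for Slc7a11, -6.49 for Gsta4, -3.23 for Akr1b8, -3.14 for Gpx2, -2.52 for Nqo1, -2.42 for Pgd, -2.26 for Cbr3, -1.89 for Srxn1, -1.64 for G6pdx, -1.48 for Nfe2l2 and -1.34 for Tkt. It was positive at 2.05 for Ephx1 and 1.75 for Hmox1. Of these 13 calls, those of Slc7a11, Gsta4, Pgd and Akr1b8 held under all 19 alternatives. In knockout skin the treatment cannot be told apart from sex, since the DMSO libraries were female and the imiquimod libraries male.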

How the results depend on the processing

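The count of members called in knockout against Cre-negative DMSO skin stayed between 20 (sex term) and 30 (no filter on low counts, and without both libraries high in 18S rRNA), where edgeR's fit of all groups gave 27. Leaving out 1 library gave 25 to 29 members there, 21 to 28 against wild-type skin, 13 to 16 in knockout against Cre-negative skin with imiquimod (13 without Cre-negative imiquimod replicate 1), 7 to 11 for imiquimod in Cre-negative skin, 0 to 7 in knockout skin, 8 to 15 in wild-type skin, 5 to 13 for the difference of responses and 0 to 0 between control genotypes. Without both libraries high in 18S rRNA, 8 members were called for imiquimod in Cre-negative skin. The response of knockout skin gave 5 members without a filter and 0 with a sex term, and the difference of responses gave 7 with library size alone and 4 with a sex term. Cre-negative against wild-type DMSO skin gave 1 member, Cbr3, with DESeq2, with no filter and with only the groups compared, where edgeR's fit of all groups gave 0. The cause was not tested.

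Signs were followed for called members, of which none turned, and for Keap1 and Nfe2l2, which turned where they were not called, and not for the other uncalled members. With library size alone the members' median itself turned to -0.14 for imiquimod in Cre-negative skin and to 0.0093 in the difference of responses. Keap1 in knockout against Cre-negative DMSO skin stood at -0.31 with library size alone and from -0.035 to 0.11 with 1 library left out (negative without replicate 3 of either group). For imiquimod in wild-type skin it stood at -0.42 with library size alone and from -0.043 (without wild-type imiquimod replicate 1) to 0.70 with 1 library left out. In the difference of responses Keap1 stood at -0.079 with a sex term and -0.052 without both libraries high in 18S rRNA, against wild-type DMSO skin at -0.34 with library size alone, and between control genotypes at -0.032 with library size alone and -0.12 with a sex term. Nfe2l2 in knockout against Cre-negative imiquimod skin stood at -0.27 (without Cre-negative imiquimod replicate 2) to 0.51 with 1 library left out, also negative without knockout imiquimod replicate 1, and at -0.33 without both libraries high in 18S rRNA.

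With the replicate block, 28 members were called in knockout against Cre-negative DMSO skin, or 29 with those groups alone, 28 against wild-type skin, 21 against Cre-negative imiquimod skin, 3, 12 and 13 for the responses of knockout, Cre-negative and wild-type skin, 13 for the difference of responses and 0 between control genotypes, and no count moved by over 1.5 times. Outside knockout against Cre-negative DMSO skin, the block ended the calls of Gstm1 (-1.38) and Taldo1 (0.90) for imiquimod in Cre-negative skin and added those of Txn1 there (1.61, adjusted p = 0.011), Gstm2 in knockout against Cre-negative imiquimod skin (-1.11, adjusted p = 0.034), Mgst1 for imiquimod in wild-type skin (-1.59, adjusted p = 0.018), and Mgst1 (-1.16, adjusted p = 0.043) and Me1 (-1.45, adjusted p = 0.048) against wild-type DMSO skin. Over all groups, 11 of 31 same-numbered pairs correlated above 0.1, as did 13 of 50 pairs with different numbers. A crossed pairing gave 21 members in knockout against Cre-negative imiquimod skin and 13 for imiquimod in wild-type skin.

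Groups of 2 or 3 libraries limit all calls, and Gstm3, under 1 CPM in every library, and Gsta1, under 1 CPM in every control library, rest on few reads.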
